A study of Macaca mulatta with 60 samples.

Results

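Y RNAs are short noncoding RNAs transcribed by RNA polymerase III. They are bound by the Ro60 and La proteins and have been tied to RNA quality control and to the initiation of DNA replication, and primate genomes carry many Y RNA copies besides the few well studied genes. The transcripts described here are the 45 distinct Ensembl transcripts named "Y RNA" in the published lists of transcripts that differed between maternal BPA exposed fetuses and matched controls in the heart, out of 26149 transcripts on the array. The 8 lists (4 heart chambers in 2 exposure windows) hold 46 Y RNA entries, because ENSMMUT00000035933 was listed 2 times. All 45 were measured on every array. Their sequences and genomic positions were not analysed here, nor were their protein partners, because the tables used did not pair these transcript identifiers with either.

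Transcript levels came from the left and right ventricle (LV, RV), the left and right atrium (LA, RA) and the biceps femoris muscle (BFM), a skeletal muscle, of female rhesus fetuses, which gave 60 arrays. The sample labels number the same 12 fetuses in each tissue. Pregnant monkeys received 400 µg/kg body weight of deuterated bisphenol A (BPA) by mouth each day, in fruit and with ethanol as the vehicle, or the vehicle alone. Exposure ran from gestation day 50 to day 100 in early gestation (EG) and from day 100 to term in late gestation (LG), with 3 exposed and 3 control fetuses in each window. EG fetuses were delivered by caesarian section and LG fetuses were taken after vaginal birth, so gestation and delivery cannot be told apart. Atrial cDNA was PCR-amplified before labelling whereas ventricular cDNA was not, each chamber had its own slide, and how BFM was prepared is not given in the sources used here. Values are log2 levels normalized within each tissue, so levels were compared only within a tissue. On an array, probes built for one short Y RNA copy may also capture near-identical copies, so each transcript identifier is uncertain as the source of its signal.

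As a check of the tissue labels, the atrial marker Myh6 lay between 14.30 and 14.96 on the log2 scale on all LA and RA arrays and between 6.28 and 10.6 in BFM. In the ventricles it ranged from 5.51 to 14.4, so it did not set all ventricular arrays apart from the atria. The erythroid transcript ALAS2 ranged from 6.49 to 12.9 over all heart arrays and from 7.44 to 9.28 in BFM.

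Y RNA signals were mostly low on the arrays, and their order was much the same in every tissue. The median Y RNA stood at percentile 40.6 of all transcripts in BFM, 38.0 in LV, 30.2 in RV, 39.6 in RA and 44.6 in LA, and 26 to 31 of the 45 lay below the middle of the array. Spearman's rho of the percentiles between tissues was 0.818 to 0.969 over 10 pairs of tissues, given as a description since the transcripts share arrays and probes. ENSMMUT00000038006 had the highest percentile averaged over tissues, 90.9, with percentiles of 91.8 in BFM, 94.2 in LV, 87.9 in RV, 87.4 in RA and 93.4 in LA. ENSMMUT00000035806 had the lowest, at percentile 9.91 in BFM, 0.46 in LV, 0.23 in RV, 3.01 in RA and 9.20 in LA. The signal of the lowest thus lay near the bottom of the ventricular arrays, and that of the highest near the top in all 5 tissues.

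**Figure D1:**
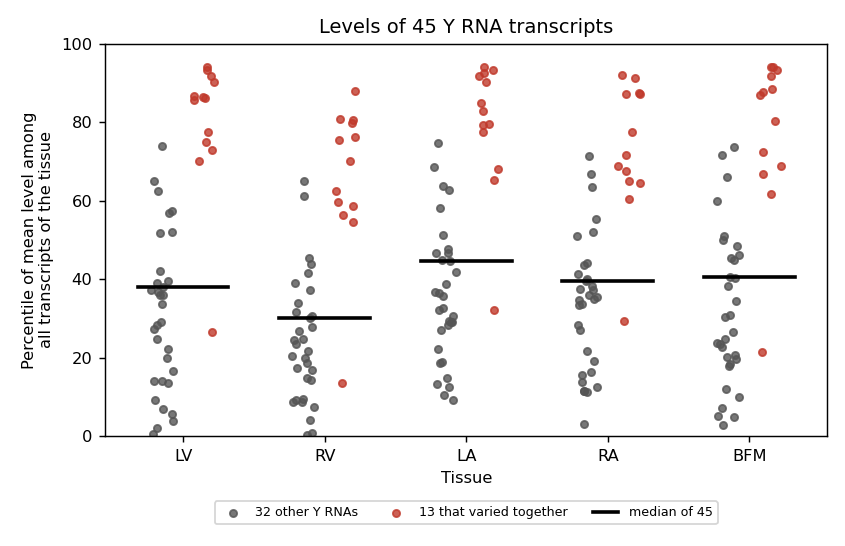
Percentile of the mean log2 level of each Y RNA among all 26149 transcripts, by tissue. Points are the 45 transcripts, red points the 13 that varied together within tissues (described in the text), and bars the median, which lay between 30.2 and 44.6.

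Most Y RNA values scattered more within a group than the median transcript did. Small RNAs had fewer probes on this array than protein coding transcripts, so measurement noise and differences between fetuses cannot be told apart here. The median within-group SD of the 45 was 0.56 in BFM against 0.26 for all transcripts, 1.02 against 0.58 in LV, 0.55 against 0.41 in RV, 0.74 against 0.34 in RA and 0.59 against 0.31 in LA. The study's filter, an interquartile range of at least 0.5 over the 12 arrays of a tissue, was passed by 34 of 45 in BFM (32.9% of all transcripts), 41 in LV (67.4%), 38 in RV (46.01%), 43 in RA (35.7%) and 38 in LA (30.2%). A transcript had to pass it in its listing tissue to be listed, whereas BFM listed none. In LV, 29 of 540 Y RNA values, from 15 transcripts, sat at the lowest value of their array. None of the 540 values did so in RV, LA, RA or BFM.

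The changes that put these transcripts in the lists are given as a description only, since they chose the members. A listed transcript had a log2 fold change (LFC) of at least 1 in size with an unadjusted p of at most 0.01, criteria met by 0.439% to 1.09% of tested transcripts in the 8 heart comparisons. Of the 46 entries, 29 were higher and 17 lower after BPA. The 15 entries for RV EG were all higher, by 1.26 to 2.42. LV EG had 2 higher and 6 lower, LV LG 3 and 5, LA EG 4 and 1, LA LG 2 and 2, RV LG 2 and 3, RA EG 1 and 0, and RA LG had no entry. The lowest Benjamini-Hochberg adjusted p (limma) of any listed entry was 0.685. In 42 of the 46 the 3 BPA exposed fetuses did not overlap with the 3 controls, where 4.92% to 17.8% of all transcripts did not overlap in the same comparisons.

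The largest listed sizes were in LV, where low values reached the array floor. ENSMMUT00000036245 was at 2.22, −0.81 and 3.08 in LV EG controls and 5.69, 6.64 and 6.17 in EG BPA fetuses, an LFC of 4.67 (SE 1.39). ENSMMUT00000036363 was at 4.64, 6.54 and 6.04 in LV EG controls and 5.26, −1.02 and −0.10 in EG BPA fetuses, an LFC of −4.36 (SE 1.31) that rested on 2 of the 3 exposed fetuses, both at the floor. In the first the groups were apart, and in the second they overlapped. ENSMMUT00000035190 was at 5.92, 5.78 and 3.82 in LV LG controls and 0.49, 0.05 and 2.24 in LG BPA fetuses (LFC −4.25, SE 1.22), without overlap.

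Outside LV the largest listed change was 2.47, and no Y RNA value lay at the array floor. ENSMMUT00000035850, the largest in RV EG, was at 5.88, 5.66 and 4.33 in controls and 8.30, 6.95 and 7.86 in EG BPA fetuses (LFC 2.42, SE 0.77). ENSMMUT00000034493, the single RA EG entry, was at 5.04, 6.00 and 4.89 in controls and 6.79, 6.90 and 6.83 in EG BPA fetuses (LFC 1.53, SE 0.47). In both, every exposed fetus lay above every control. ENSMMUT00000038068 was the largest fall in RV LG, from 7.28, 6.62 and 6.59 in controls to 4.89, 5.44 and 5.40 in LG BPA fetuses (LFC −1.59, SE 0.37). ENSMMUT00000050668, the largest rise in LA LG, was at 6.46, 5.43 and 3.69 in controls and 7.77, 6.61 and 7.87 in LG BPA fetuses (LFC 2.23, SE 0.60), and ENSMMUT00000038127, the largest fall there, was at 7.43, 4.44 and 7.06 against 4.47, 3.99 and 3.79 (LFC −2.22, SE 0.68). The first 2 of these 3 had groups without overlap, whereas the low LG control of ENSMMUT00000038127 lay within the exposed values.

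By unadjusted p, the entry nearest the threshold from inside was ENSMMUT00000037617 in RV LG (LFC −1.11, limma adjusted p = 1.00). The nearest from outside by the same measure was ENSMMUT00000035273 in RA LG (LFC 1.44, limma adjusted p = 0.961), a transcript listed for RV LG.

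The one transcript in more than 1 list, ENSMMUT00000035933, did not keep a direction across tissues. In LA EG it was at 4.40, 3.92 and 3.60 in controls and 6.38, 7.05 and 5.90 in EG BPA fetuses (listed, LFC 2.47, SE 0.81). In LV LG it was at 1.45, 4.26 and 0.63 in controls and 6.66, 6.03 and 6.08 in LG BPA fetuses (listed, LFC 4.14, SE 0.95), and 1 of these controls was at the array floor. In LA LG, where it was not listed, the LFC was −1.71 (SE 0.81), in RA LG −1.06 (SE 0.92), in RV LG 0.87 (SE 0.74) and in BFM LG −0.55 (SE 0.65).

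A group of Y RNA copies mostly went up and down together across the arrays of a tissue. Over all 990 pairs of the 45, the mean correlation of deviations from the group means was 0.22 in BFM, 0.10 in LV, 0.10 in RV, 0.16 in RA and 0.097 in LA, against 0.00030 to 0.0055 over all pairs of transcripts. Quantile normalization within a tissue keeps the mean over all pairs near 0, so this comparison does not show a trait particular to Y RNAs. Average linkage on the heart values, cut at a mean r of 0.5, placed 13 copies in 1 cluster, while 28 copies stood alone and the others formed 2 pairs. Of the 13, 11 were listed for RV EG and 2 for LA LG. The cluster was formed after its values were seen, so its numbers are descriptions without a test. Its mean pairwise r was 0.68 in LV, 0.54 in RV, 0.71 in RA and 0.68 in LA, which formed it, and 0.64 over the 12 arrays of BFM, which did not. The lowest r of any pair in the cluster was −0.25 in RV, −0.0059 in BFM, 0.090 in RA, 0.13 in LV and 0.17 in LA. The 32 others had a mean r of 0.11 in BFM, 0.012 in LV, 0.021 in RV, 0.050 in RA and 0.033 in LA.

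The pair most alike over the tissues was ENSMMUT00000033962 and ENSMMUT00000034209, with r of 0.71 in BFM, 0.89 in LV, 0.93 in RV, 0.90 in RA and 0.84 in LA (12 arrays each, group means removed). The 13 also gave mostly higher signals, with a median percentile of 86.9 in BFM, 86.3 in LV, 70.0 in RV, 71.7 in RA and 82.9 in LA, against 22.6 to 35.2 for the 32 others. Signals of different probes are not levels on one scale, so this does not rank the copies by abundance. ENSMMUT00000038127 was the exception, at percentile 13.5 to 32.2. The pattern was not confined to Y RNAs, as 1308 of 26136 other transcripts (5.00%) had a mean r of at least 0.6 with the average of the 13 over the 5 tissues.

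In RV the EG controls stood apart for these 13 copies. Their mean log2 level was 6.72, 6.88 and 5.84 in the EG controls and 8.22, 7.89 and 8.11 in EG BPA fetuses. It was 9.04, 8.17 and 7.69 in the LG controls and 7.85, 8.08 and 8.58 in LG BPA fetuses. The 3 EG controls were thus the 3 lowest of the 12 RV arrays, and the 9 others overlapped whatever their window or treatment. The EG difference is a description, since 11 of the 13 were chosen on it. In the same arrays Myh6 was at 5.51, 6.77 and 11.9 in EG controls and 7.43, 11.8 and 12.8 in EG BPA fetuses, and its part in the result was not tested. In bulk tissue, fewer cells of a type and less RNA per cell cannot be told apart.

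The same 13 copies did not separate EG BPA from EG control fetuses elsewhere. In LV the group means were 9.36 ± 0.37 in EG controls and 9.18 ± 0.55 in EG BPA fetuses (SD, n = 3). The same means were 9.94 ± 0.46 and 9.54 ± 0.23 for LA, 9.10 ± 0.93 and 8.93 ± 0.42 for RA, and 10.3 ± 0.30 and 10.3 ± 0.22 for BFM. The groups overlapped in all 4 of these tissues. In LA EG 2 of the 13 had a positive LFC, with a median of −0.34, against 6 in LV EG, 4 in RA EG and 7 in BFM EG. In RA LG the mean was 9.84, 9.52 and 9.78 in controls and 9.73, 8.16 and 8.86 in LG BPA fetuses, and each of the 13 had a negative LFC there, with a median of −0.78. The highest exposed fetus lay within the controls. In LV LG 12 of the 13 had a positive LFC, with a median of 0.68, and the mean was 8.29, 9.90 and 9.83 in controls and 9.87, 9.54 and 10.5 in LG BPA fetuses, which overlapped. In LA LG 1 of the 11 not listed there had a positive LFC (median −0.20). The counts were 2 of 13 in BFM LG (median −0.12) and 5 of 13 in RV LG (median −0.18).

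**Figure D2:**
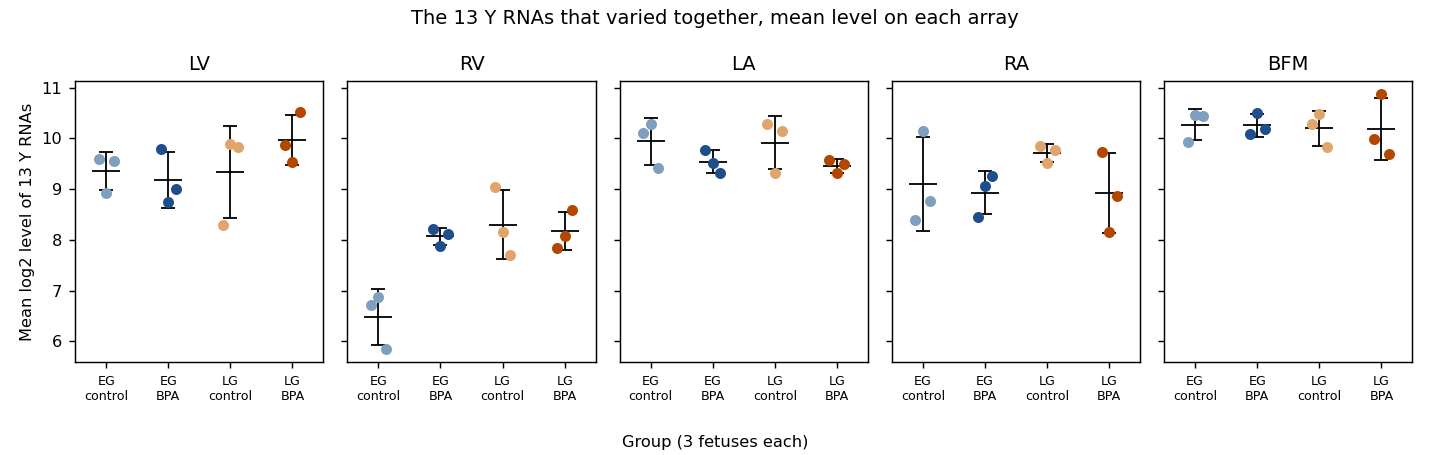
Mean log2 level of the 13 Y RNAs that varied together, on each array, by group and tissue. Points are fetuses, bars the mean ± SD of 3. The EG controls of RV, between 5.84 and 6.88, lay below the other 9 RV arrays, and levels are not comparable between tissues.

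A fetus that was high for a Y RNA in one tissue was not generally high in another. The median correlation of a Y RNA's deviations between 2 tissues of the same 12 fetuses ran from −0.28 to 0.19 over 10 pairs of tissues. For all transcripts it ran from 0.044 to 0.27, and the Y RNAs were below all transcripts in 8 of the 10 pairs.

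BFM gave a reading of BPA exposure whose values took no part in choosing the members, although it came from the same fetuses. In BFM EG, 1 of 34 tested Y RNAs was called, where 0.267% of all tested transcripts were. It was ENSMMUT00000050277, at 6.60, 5.54 and 7.94 in EG controls and 4.70, 5.12 and 4.81 in EG BPA fetuses. All exposed fetuses were below all controls, an LFC of −1.82 (SE 0.56, limma adjusted p = 1.00, exact permutation p = 0.1, the smallest that 3 against 3 allows), but the call was lost when any 1 of 6 fetuses (3, 4, 5, 6, 8 or 11) was left out, with an LFC of −1.19 without EG control fetus 3. In RV EG, where it was listed, the same transcript went the other way, from 3.55, 4.29 and 3.97 in controls to 5.67, 8.30 and 4.80 in EG BPA fetuses. In BFM LG, 0 of 34 were called by limma (0.825% of all tested), and 0 had an unadjusted p of at most 0.05, where 5.32% of all tested transcripts did. The median LFC of the 45 in BFM was 0.03 in EG and −0.12 in LG, against 0.01 over all transcripts in each. Both took either sign with 1 fetus left out, from −0.11 without EG BPA fetus 5 to 0.14 without EG BPA fetus 4 in EG, and from −0.41 without LG BPA fetus 11 to 0.07 without LG BPA fetus 12 in LG. The 3 exposed and 3 control fetuses did not overlap for 4 of 45 in BFM EG (10.2% of all transcripts) and 3 of 45 in BFM LG (6.71%).

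In LV, RV and LA, Y RNAs not listed for a comparison had by selection missed its threshold, so their counts of calls are not read. In LV LG, 30 of 37 unlisted Y RNAs had a positive LFC (51.5% of all transcripts), with a median of 0.67 against 0.02 over all transcripts. Of these 30, 12 were among the 13 copies that varied together, so they are not separate readings. The 37 also lack 3 listed rises and 5 listed falls. In RA LG 11 of 45 had a positive LFC (52.7% of all transcripts, median −0.41 against 0.02). In LA LG the median of 41 was −0.25 against −0.01, with 10 positive (48.6% of all transcripts). The LG medians thus differed in sign between LV and the atria. Leaving out a fetus kept these signs, but the LV median was 0.32 without LG control fetus 7, the LA median −0.14 without that fetus, and the RA median −0.63 without LG BPA fetus 10 and −0.22 without LG BPA fetus 11. In LV LG, Myh6 was at 14.2, 14.2 and 14.4 in controls and 5.56, 7.62 and 13.4 in LG BPA fetuses. In LA LG, ALAS2 was at 6.49, 7.80 and 8.89 in controls and 9.26, 9.42 and 12.9 in LG BPA fetuses, without overlap. The part of either marker in these results was not tested. The other medians were 0.11 in RA EG, −0.24 in LA EG, −0.08 in RV LG, 0.09 in RV EG and −0.09 in LV EG, against −0.02 to 0.05 over all transcripts in these comparisons. Each of these took either sign with a fetus left out, except the LA EG median, which ranged from −0.43 to −0.083.

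Unlisted Y RNAs whose exposed and control fetuses did not overlap numbered 3 of 37 in LV EG (10.7% of all transcripts), 4 of 37 in LV LG (7.80%), 3 of 30 in RV EG (17.8%) and 2 of 40 in RV LG (4.92%). In the atria they were 2 of 40 in LA EG (9.35%), 4 of 41 in LA LG (8.93%), 1 of 44 in RA EG (6.87%) and 5 of 45 in RA LG (8.39%). These counts lack the listed transcripts, nearly all of which did not overlap.

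The published RA lists are shorter than the calls made at the same criteria, so in RA, unlike the other chambers, an unlisted Y RNA could still be called, and 2 were. ENSMMUT00000036316 was at 5.27, 5.29 and 5.31 in RA EG controls and 3.83, 3.82 and 4.00 in EG BPA fetuses (LFC −1.41, SE 0.40, limma adjusted p = 1.00), 1 of 42 unlisted and tested with a background of 0.439%. ENSMMUT00000050165 was at 5.69, 4.25 and 5.28 in RA LG controls and 7.25, 8.17 and 5.70 in LG BPA fetuses (LFC 1.97, SE 0.62, limma adjusted p = 0.961), 1 of 43 with a background of 0.439%. Neither pair of groups overlapped, although in the second the gap was only between 5.69 and 5.70.

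For ENSMMUT00000050165 the LFC in RA LG exceeded that in RA EG by 2.70 (SE 0.87, limma adjusted p = 0.998 for the difference between windows). This was the 1 such call among 42 Y RNAs not listed for RA, with a background of 0.332%. In RA EG this transcript went the other way, from 5.44, 6.16 and 6.80 in controls to 4.99, 4.90 and 6.32 in EG BPA fetuses, which overlapped. No Y RNA was called there without the filter on the interquartile range, with the stricter filter, or without EG BPA fetus 4 or 5 or LG control fetus 8 or 9 (limma). In LV, RV, LA and BFM, 0 unlisted Y RNAs were called for that difference by limma, with backgrounds of 1.17%, 0.515%, 1.23% and 0.499%. An unadjusted p of at most 0.05 was reached by 1 of 34 in BFM (2.81% of all tested), 2 of 25 in LV (5.66%), 0 of 18 in RV (2.72%), 3 of 42 in RA (2.68%) and 2 of 29 in LA (6.19%).

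**Figure D3:**
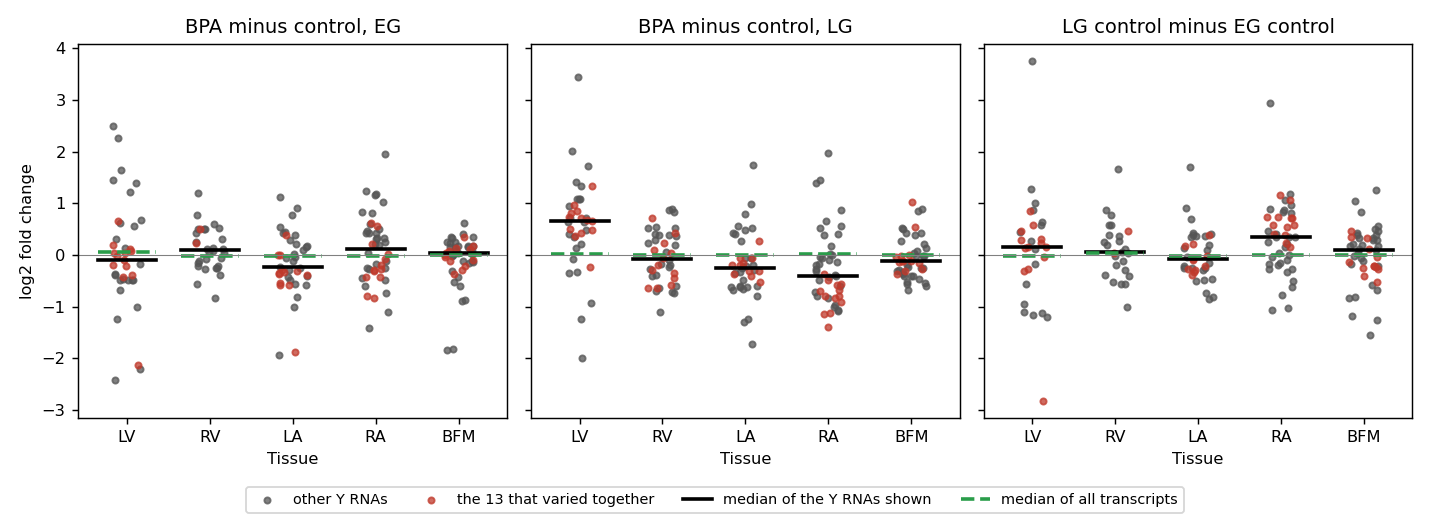
LFC of each Y RNA in each tissue, leaving out those listed for that comparison (for gestation, those listed for that tissue). Points are transcripts, black bars their median, dashed green bars the median of all transcripts. The LV LG median was 0.67 and the RA LG median −0.41.

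Each Y RNA was then read over the mean of the 4 other tissues of each fetus, so that the fetus was the replicate. These tissues came from the same fetuses as the listing tissue. Fetus differences shared by tissues could thus carry the selection over, and leaving the listing tissue out did not fully remove it. Of the 29 EG entries, 10 kept the sign of the listed change, and of the 17 LG entries, 11 did. The entries are not separate readings, since 11 of the EG and 2 of the LG entries were among the 13 copies that varied together. Of those EG entries, only ENSMMUT00000037837 and ENSMMUT00000038006 kept the sign. The median size of the LFC over the other tissues was 0.18 for the EG entries and 0.22 for the LG entries. Sizes in the listing tissue were selected, so only their direction is read beside these values. Over all 45, 0 had an unadjusted p of at most 0.01 in EG by limma (2 at 0.05 or below). In the fits that left out LV, RV, LA and RA, 0.249%, 0.887%, 0.665% and 0.688% of all transcripts did. In LG 1 did, against 0.910%, 0.864%, 0.841% and 0.792% of all transcripts. The lowest adjusted p was 0.999 in EG and 0.982 in LG.

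The extremes in EG were ENSMMUT00000037508, with 0.73 (SE 0.41) over the other tissues and a listed fall in LA, and ENSMMUT00000050277, with −1.19 (SE 0.45) and a listed rise in RV. Both went against their listed direction. Leaving out a fetus moved the first between 0.21 (without EG control fetus 2, whose LV value lay at the array floor) and 1.09 (without EG control fetus 1), and the second between −1.54 (without EG BPA fetus 4) and −0.72 (without EG BPA fetus 5). In LG the lowest was ENSMMUT00000035933, at −0.62 (SE 0.41) over the tissues without LV, −0.15 without LG control fetus 7 and −0.99 without LG BPA fetus 10, and the highest was ENSMMUT00000035273, at 1.26 (SE 0.34).

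**Figure D4:**
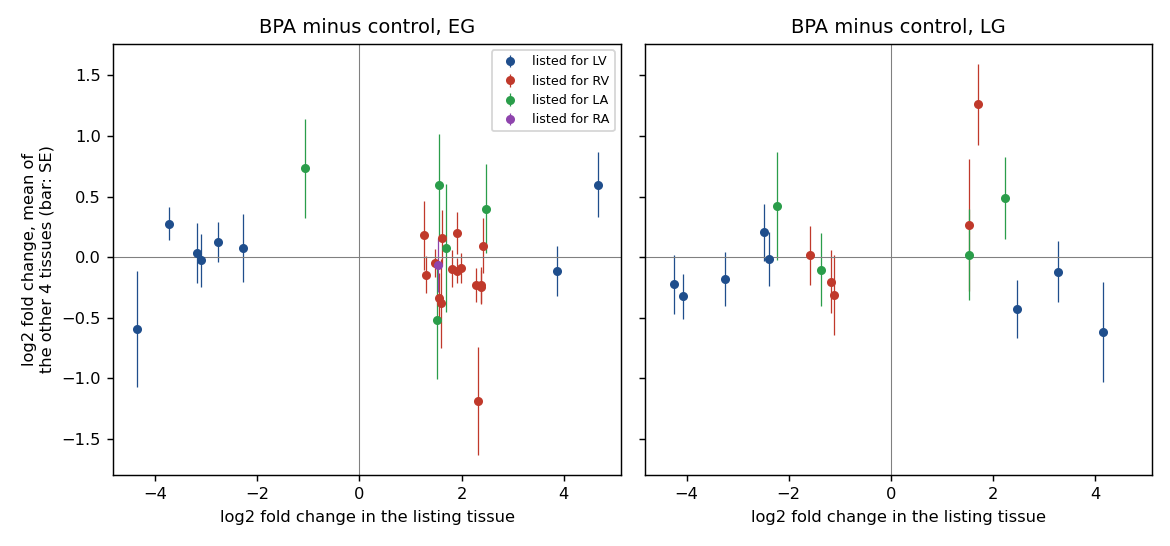
LFC of each listed Y RNA entry in its listing tissue (horizontal) and over the mean of the 4 other tissues (vertical, bars are the SE), for EG and LG. Horizontal positions were selected by the lists, so only their sign can be read against the vertical ones. ENSMMUT00000035273, at 1.26, is the highest point in the LG panel.

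ENSMMUT00000035273, listed as higher in RV LG, had a positive LFC in each of the 4 other tissues. Its levels in LG controls and LG BPA fetuses were 6.17, 5.19 and 5.42 against 7.05, 6.28 and 7.46 in LV, and 5.98, 9.07 and 7.07 against 8.33, 9.36 and 9.66 in LA. They were 7.64, 8.82 and 7.25 against 8.90, 9.80 and 9.34 in RA, and 8.15, 8.72 and 7.88 against 8.73, 8.45 and 9.14 in BFM. All exposed fetuses were above all controls in LV and RA, and the groups overlapped in LA and BFM. In RV, its listing tissue, the values were 4.74, 7.06 and 5.33 against 7.40, 7.83 and 7.01, with a small overlap. LG control fetus 8 was the highest LG control in RV, LA, RA and BFM, though the lowest in LV. The other tissues are thus not independent of the RV values that listed this transcript. The LFC of ENSMMUT00000035273 was 1.34 (SE 0.50) in LV, 1.75 (SE 0.68) in LA, 1.44 (SE 0.50) in RA and 0.52 (SE 0.39) in BFM. It was not alone in keeping its listed sign in each, as ENSMMUT00000036245, listed as higher in LV EG, had LFCs of 0.08 in BFM, 1.20 in RV, 0.34 in RA and 0.77 in LA, with a mean of 0.60 (SE 0.27, limma adjusted p = 1.00).

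Over the mean of the 4 tissues without RV, ENSMMUT00000035273 was at 8.54 ± 0.33 in LG BPA fetuses and 7.28 ± 0.58 in LG controls (SD, n = 3), with p = 0.00309 unadjusted and 0.983 adjusted over all transcripts (limma) and an exact permutation p of 0.1. Without LG control fetus 7, LG control fetus 9 or LG BPA fetus 12 the LFC stayed between 1.08 and 1.11 with p from 0.0148 to 0.0154 (limma). In EG the same mean was 5.79 ± 0.55 in EG BPA fetuses and 5.49 ± 0.36 in controls, a difference of 0.30 (SE 0.34). The LG groups of ALAS2, which were apart in LA as given above, overlapped in LV, RV, RA and BFM. Those of Myh6 were apart in LV, as given above, and overlapped in RV, LA, RA and BFM. The part of either marker in the result was not tested.

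Late and early gestation were compared in the controls. A Y RNA's listing tissue was left out because its controls helped to choose it, although the other tissues came from the same control fetuses. There, 16 of 20 listed Y RNAs met the calling criteria for gestation in RV, 5 of 16 in LV, 2 of 9 in LA and 0 of 1 in RA, values fixed in part by the selection. Outside the tissues that listed them, 0 of 25 tested Y RNAs were called in LV by limma (2.95% of all tested), 0 of 18 in RV (6.68%), 0 of 29 in LA (6.78%), 1 of 42 in RA (5.47%) and 1 of 34 in BFM (26.6%). An unadjusted p of at most 0.05 was reached by 3 in BFM (58.0% of all tested), 2 in LV (10.6%), 2 in RV (20.05%), 1 in RA (13.5%) and 1 in LA (15.9%). With an LFC of at least 1 in size and an adjusted p of at most 0.05 (limma), the counts were 2 in BFM (28.2%), 1 in RA (2.00%) and 0 in LV (0%), RV (1.98%) and LA (2.49%). LG and EG controls did not overlap for 4 of 45 in BFM (35.7% of all transcripts), 3 of 29 in LV (17.9%), 5 of 25 in RV (22.9%), 3 of 44 in RA (14.3%) and 2 of 36 in LA (14.8%). The median LFC from EG to LG was 0.09 in BFM, 0.16 in LV, 0.06 in RV, 0.36 in RA and −0.09 in LA, against −0.01 to 0.03 over all transcripts. Leaving out 1 fetus turned the sign of all but the RA median, which ranged from 0.15 to 0.67.

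Both calls were ENSMMUT00000035273. It was at 4.94, 5.15 and 4.80 in RA EG controls against 7.64, 8.82 and 7.25 in LG controls (LFC 2.94, SE 0.50, limma adjusted p = 0.0107). In BFM it was at 7.16, 7.31 and 6.51 in EG controls against 8.15, 8.72 and 7.88 in LG controls (LFC 1.26, SE 0.39, limma adjusted p = 0.0189). In both tissues every LG control lay above every EG control. The BFM call was lost when any 1 of fetuses 1, 3, 7, 8 and 10 was left out (LFC 1.01 without EG control fetus 3), and the RA call was kept without each fetus in turn. In LV its EG controls were at 4.98, 4.10 and 3.89, below the 3 LG controls (LFC 1.27, SE 0.50, limma adjusted p = 0.412), and in LA they were at 5.44, 6.46 and 5.09, overlapping with them (LFC 1.71, SE 0.68, limma adjusted p = 0.219).

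Averaged over the 4 tissues without RV, ENSMMUT00000035273 was at 5.49 ± 0.36 in EG controls and 7.28 ± 0.58 in LG controls, a difference of 1.79 (SE 0.34, limma adjusted p = 0.0110). It was 1 of 2 with an unadjusted p of at most 0.01 among the 44 Y RNAs listed for a single tissue, where 11.5%, 10.1%, 10.7% and 9.79% of all transcripts reached that p in the fits without LV, RV, LA and RA. This average over tissues was added after the gestation values in each tissue had been seen. The other was ENSMMUT00000037508, listed for LA EG, with a difference of 1.53 (SE 0.41, limma adjusted p = 0.0466), which missed the threshold with the fetus as a random block and without LG control fetus 7 or 8. Its LV values were 7.36, −0.81 and 6.99 in EG controls and 7.87, 9.46 and 7.46 in LG controls, and the EG value of −0.81 lay at the array floor. In RV it was at 6.11, 6.75 and 6.44 against 9.24, 8.03 and 7.01, in RA at 9.03, 9.37 and 7.14 against 9.73, 8.93 and 9.39, and in BFM at 9.09, 9.29 and 9.48 against 9.21, 9.32 and 8.97. The groups were apart in LV and RV and overlapped in RA and BFM. Without the floor fetus (EG control 2) the mean difference was 1.01. Myh6 differed between the same controls, from 6.44, 6.48 and 6.73 in EG to 14.2, 14.2 and 14.4 in LG in LV, and from 6.30, 6.47 and 6.54 to 6.63, 7.74 and 10.6 in BFM, without overlap in either, and its part in the gestation results was not tested.

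**Figure D5:**
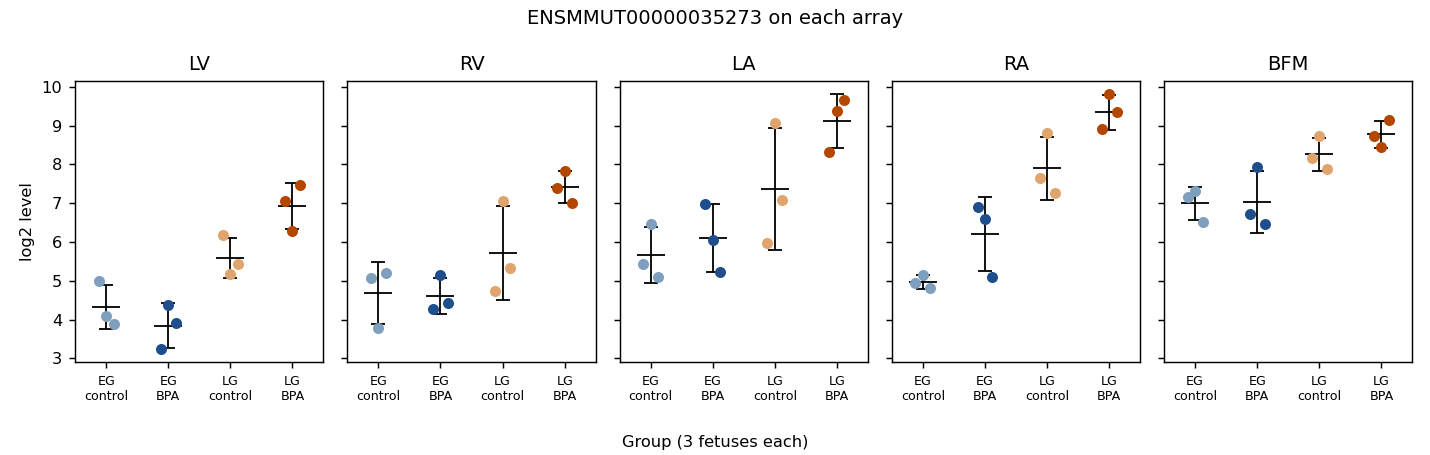
Log2 level of ENSMMUT00000035273 on each array, by group and tissue, with the mean ± SD of 3 fetuses. In RA the EG controls were between 4.80 and 5.15, the LG controls between 7.25 and 8.82, and the LG BPA fetuses between 8.90 and 9.80. RV LG is the comparison that listed this transcript.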

How the data were processed

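The authors measured transcripts on custom NimbleGen rhesus arrays designed from Ensembl (Mmul_1) and deposited log2 values made by robust multi-array averaging (background correction, quantile normalization and summary of the probes of a transcript) within each tissue. Small RNAs had fewer probes than protein coding transcripts, so single probes weigh more. Scanner intensities were not used here, and the number of arrays, 3 fetuses per group, limits the precision.

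The Y RNAs were taken from the published lists by identifier and description only, and 2 identifiers had a surplus digit corrected. The members, the lists and the tests were chosen with earlier results of these data known. For each tissue, all 12 arrays entered 1 linear model of the 4 group means (R 4.3.3, limma 3.58.1 with eBayes defaults) once transcripts varying by less than an interquartile range of 0.5 had been dropped, following the study's methods. Calls needed an unadjusted p no higher than 0.01 and an LFC of 1 or more in size, and p-values were adjusted by Benjamini-Hochberg over all transcripts tested. Exact permutation tests over 3 against 3 fetuses are two-sided with a smallest p of 0.1. BPA effects over several tissues were fitted on the mean of a fetus's 4 other tissues. Samples with the same fetus number in their label were taken to come from the same animal in every tissue, and no number is shared between groups. The fetus was therefore also fitted as a random block with duplicateCorrelation (statmod 1.5.0). Correlations used deviations from the group means. The fits were tested on simulated data.

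Y RNAs named in the text were the one in 2 lists, the largest rise and fall of each list, the highest and lowest mean percentile, those called in BFM or for gestation outside the listing tissue, the largest rise and fall over the other tissues, the pair most alike, and those nearest the threshold. ENSMMUT00000036316 and ENSMMUT00000050165 were named after their values were seen. The alternatives tried were no filter, a filter at an interquartile range of 1, only the arrays of the groups compared, a robust prior variance with a trend, median centring, a second quantile normalization, leaving out transcripts whose mean fell below the 25th percentile, raising the lowest values to a common floor, an adjusted p of at most 0.05, only the other heart chambers, and leaving out each fetus. Counts within 1.5 times of each other were taken as equal. Figures were drawn with matplotlib 3.10.9 (Python 3.11.15).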

Additional observations from a re-analysis of the deposited data

How the results depend on the processing

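With 3 fetuses per group, most limits came from single fetuses, and LV values at the array floor and the few probes of a small RNA add to them. The call in BFM EG became 0 with only the arrays of the groups compared (LFC −1.82 as before, but p above the threshold), with weak transcripts removed and at an adjusted p of at most 0.05, and ranged from 0 to 2 when a fetus was left out. The BFM LG count ranged from 0 to 1. The gestation count in BFM became 2 with median centring and 2 at an adjusted p of at most 0.05, and the count in RV became 1 with only the control arrays. Leaving out a fetus gave gestation counts of 0 to 2 in BFM, 0 to 1 in LA, 0 to 1 in LV, 1 to 4 in RA and 0 to 1 in RV. The call for the difference between windows in RA became 0 without the filter, with the stricter filter and at an adjusted p of at most 0.05, alternatives chosen after seeing the data. With a fetus left out these counts ranged from 0 to 2 in RA and from 0 to 1 in each of BFM, LA and LV.

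Over the other tissues, counts with a fetus left out were 0 to 1 in EG, 0 to 2 in LG and 1 to 4 for gestation. With the fetus as a random replicate block, whose estimated correlation was 0.056 to 0.091, the counts stayed at 0 in EG and 1 in LG, and the gestation count fell from 2 to 1 as ENSMMUT00000037508 (LFC 1.53) missed the threshold. In the block fit ENSMMUT00000035273 kept its calls (LFC 1.26 in LG and 1.79 for gestation), and over the other heart chambers alone its LG difference was 1.51.

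The mean correlation between Y RNAs rose to 0.35 in BFM, 0.24 in LV and 0.16 in RV without weak transcripts. Without the members listed in that tissue it was 0.25 in LV, 0.076 in RV, 0.16 in RA and 0.11 in LA. Without the 13 copies it was 0.11 in BFM, 0.033 in LA, 0.012 in LV, 0.050 in RA and 0.021 in RV, and the LA EG median was −0.048. These last settings were chosen after seeing the data. Medians with a fetus left out ranged from −0.43 to −0.083 in LA EG and −0.16 to 0.42 in RA EG, and for gestation from −0.27 to 0.11 in LA and 0.15 to 0.67 in RA. The LV LG median stayed between 0.32 and 0.93 and the RA LG median between −0.63 and −0.22. With a fetus left out the medians of BFM LG (−0.41 to 0.07), BFM EG (−0.11 to 0.14), RV LG (−0.27 to 0.17), RV EG (−0.07 to 0.17) and LV EG (−0.31 to 0.09) took either sign, as did the gestation medians of LV (−0.14 to 0.43), RV (−0.15 to 0.24) and BFM (−0.07 to 0.16). The LFCs that were refitted for ENSMMUT00000035273, ENSMMUT00000035933, ENSMMUT00000037508 and ENSMMUT00000050277 kept their sign under all alternatives run for them. Listed changes were not refitted. The causes were not tested.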
